A study of Mus musculus with 2 samples.

Results

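Neuronal-type adhesion molecules were examined in epithelial cells sorted from mouse small-intestinal organoids. They were taken as every gene row whose symbol, split at commas, begins with the name of one of these families: AMIGO, CADM, contactins, contactin-associated (CASPR) proteins, NCAM, the L1 family, neurexins, neuroligins, LRRTM, LRFN, LRRN, LINGO, SLITRK, FLRT, IGSF, IgLON proteins, nectins (listed under the older symbol *Pvrl*), trophoblast glycoprotein, and the scaffold families HOMER, SHANK, DLG and DLGAP. The rule found 95 genes among the 23532 symbols that had an estimate in both libraries. It takes in some proteins that are not neuronal, such as the nectins of epithelial junctions, the tight-junction protein *Igsf5* and the mitotic spindle protein *Dlgap5*.

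The organoids were cultures of crypt epithelium in Matrigel from ChgA-GFP reporter mice, fed with epidermal growth factor, noggin and R-spondin conditioned medium. In these mice the chromogranin A gene drives green fluorescent protein (GFP), so the reporter marks enteroendocrine cells that make chromogranin A, of which serotonin-releasing enterochromaffin cells are a large class. The GFP+ library came from the fluorescent cells, about 1% of the epithelial cells, and the GFP- library from the remaining cells of the same sort. Both fractions carry the same reporter, and the number of mice or cultures behind them is not stated. Each fraction was sequenced as 1 library, so no value below has a replicate error, and no test between fractions was possible.

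Synaptic adhesion molecules span the gap between cells: neurexins on the presynaptic side bind neuroligins, LRRTM proteins and other partners on the facing cell. Leucine-rich repeat proteins (AMIGO, LINGO, LRRN, SLITRK, FLRT) and immunoglobulin-like proteins (NCAM, L1, contactins, CADM, nectins) bind either their own kind or partners on a neighbour. Inside the cell, DLG, DLGAP, SHANK and HOMER proteins form the scaffold below the contact. Enterochromaffin cells are electrically excitable epithelial cells that signal to sensory nerve endings, which is the question the study addressed.

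Levels are given in FPKM, a count of sequenced fragments divided by transcript length and by library size. Differences are log2((FPKM + 1) in GFP+ / (FPKM + 1) in GFP-), so that changes of weakly expressed genes come out too small. Directions were also checked with the libraries rescaled, either to one total or so that the median ratio of well-expressed genes was 0 on the log2 scale. The totals leave out the 5 rows without an estimate in GFP+, *Chga* and *Chgb* among them. Before rescaling they were 407210 FPKM in GFP+ and 626177 FPKM in GFP-. Genes were compared from 1 FPKM in whichever library was higher, and were set apart where the difference reached 2, which is 4-fold; this rule of size is no test. Of the 95 members, 36 were compared. At least 4-fold higher in GFP+ were 9 of these 36, while 7.09% of the 11868 symbols compared passed the same rule. None of the 36 was at least 4-fold lower, against 4.59% of all symbols. In sorted bulk cells a lower value can come from fewer cells of a type or from less RNA per cell, which cannot be told apart. The median difference of the 36 members was 0.81, against -0.12 over all symbols compared, and over all 95 members with no filter it was 0.036, against 0 for all symbols. A GFP- level below 1 FPKM fixes the sign for members that were compared only through GFP+. There were 14 of these among the 36, against 1277 of the 11868 symbols compared, so the medians with the filter are taken over unlike mixes. Of the 14, 7 passed the rule, against 31.7% of all symbols in the same position. The other 22 members had at least 1 FPKM in both libraries, and 2 of them passed the rule, against 4.12% of all symbols of at least 1 FPKM in GFP-.

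**Figure D1:**
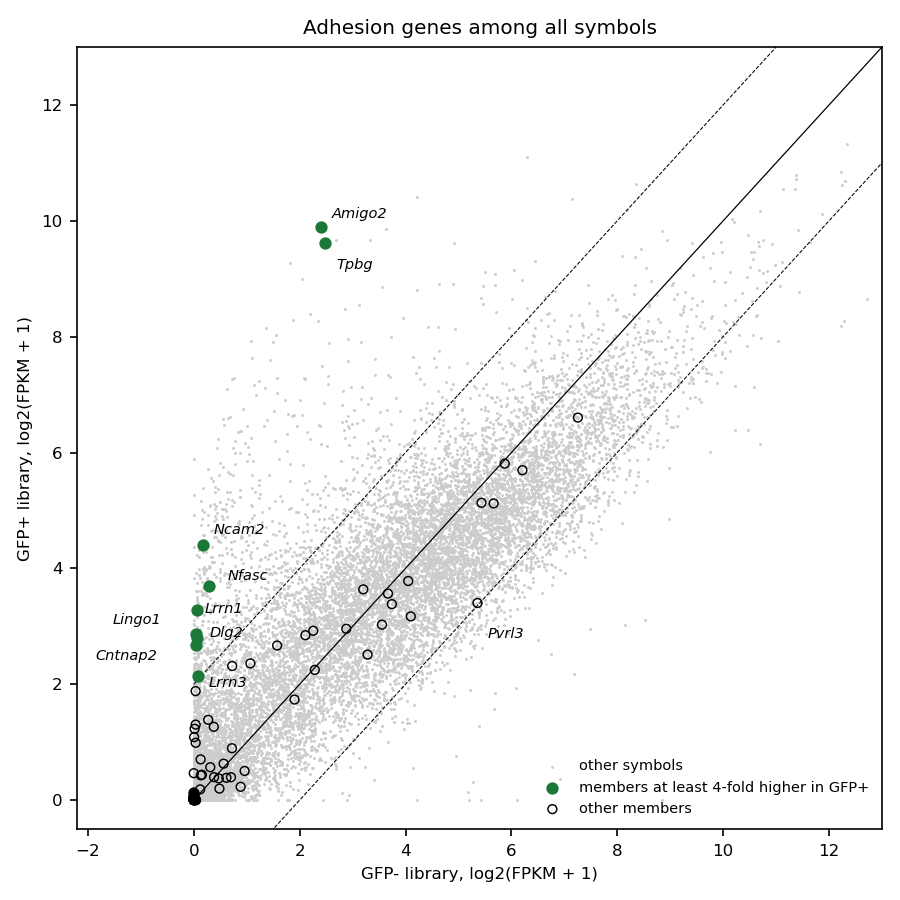
Level of every symbol in the GFP+ library (vertical axis) and the GFP- library (horizontal axis), as log2(FPKM + 1), with the 95 members marked. The solid line is equality and the dashed lines are 4-fold; *Amigo2* and *Tpbg* lie far above the upper line at 954 and 785 FPKM in GFP+, the other 7 filled points lie above it near the left edge, and *Pvrl3* lies just inside the lower line.

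The strongest member was *Amigo2*. It encodes a transmembrane protein with leucine-rich repeats that binds itself and its AMIGO relatives. Its level of 954 FPKM in GFP+ was 223 times its level in GFP-, which was 4.28 FPKM. Its log2 difference of 7.50 was the highest of all 11868 symbols compared (rank 1), and its GFP+ level ranked 18 of the symbols with an estimate. Both ranks leave out the 5 rows, *Chga* and *Chgb* among them, that had too many fragments in GFP+ to be estimated. The deposited upper bounds were 2405 FPKM in GFP+ against 10.1 in GFP-, and the lower bounds were 0 in both. The gene lies on chromosome 15, minus strand, 97244125 to 97247287 (mm10, GENCODE M21), as a protein-coding gene. The locus in the files is a merged one that also holds *Pced1b*, at 2.24 FPKM in GFP+ versus 0.0651 in GFP-, so the neighbour was far below *Amigo2* in both libraries.

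*Tpbg* followed. It encodes trophoblast glycoprotein (5T4), a leucine-rich repeat protein of the cell surface that is known to inhibit Wnt signalling. Its level of 785 FPKM in GFP+ was 170 times its level in GFP-, which was 4.61 FPKM; the deposited upper bounds were 1989 FPKM in GFP+ against 11.6 in GFP-. Its log2 difference of 7.13 ranked 3 of all symbols compared and its GFP+ level ranked 31, with the same rows left out. The gene lies on chromosome 9, plus strand, 85842380 to 85847040, and shares its locus with no other row. Summed over the 95 members, FPKM was 2201 in GFP+ and 538 in GFP-. Without *Amigo2* and *Tpbg* the sum over the other 93 members was 462 FPKM in GFP+ against 529 in GFP-. That order turned under both rescalings, which were added for this sum after seeing the data: it was 654 in GFP+ against 529 in GFP- with the median ratio set to 0, and 1135 in GFP+ against 845 in GFP- with one total.

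The promoters of these highest members are shown because the genes share the pattern of expression and differ in base composition. The sequences are the 250 bases before the RefSeq transcription start (GRCm38.p6), read along the gene's strand, and capitals mark each CG dinucleotide.
Amigo2 (chr15:97247288-97247537, minus strand): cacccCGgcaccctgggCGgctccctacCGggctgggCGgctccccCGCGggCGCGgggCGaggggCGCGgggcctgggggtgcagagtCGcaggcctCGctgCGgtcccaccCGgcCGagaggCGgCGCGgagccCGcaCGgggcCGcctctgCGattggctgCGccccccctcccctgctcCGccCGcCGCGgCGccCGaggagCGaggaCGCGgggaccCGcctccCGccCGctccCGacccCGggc
Tpbg (chr9:85842130-85842379, plus strand): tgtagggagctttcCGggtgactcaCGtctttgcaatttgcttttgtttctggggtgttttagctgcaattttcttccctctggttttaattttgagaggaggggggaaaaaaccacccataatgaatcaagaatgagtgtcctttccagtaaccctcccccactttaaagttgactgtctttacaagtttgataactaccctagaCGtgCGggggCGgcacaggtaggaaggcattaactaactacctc
The *Amigo2* window holds 38 CG dinucleotides, more than in 98.1% of the 32851 promoter windows of the table. The *Tpbg* window holds 5, more than in 44.4% of them, and a second *Tpbg* start in the table has 14. The median over all windows is 6.

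Of 12 AMIGO, LINGO and LRRN genes, 6 were compared and 4 passed the rule, against 7.09% of all symbols compared. Of the 4, 3 (*Lrrn1*, *Lrrn3* and *Lingo1*) were compared only through GFP+, where 31.7% of all symbols passed. *Amigo1* was at 5.36 FPKM in GFP+ versus 1.98 in GFP-, and *Amigo3* at 6.58 FPKM in GFP+ against 3.78 in GFP-, with differences of 1.09 and 0.67. *Amigo3* lies in a merged locus with *Gmppb*, at 45.4 FPKM in GFP+ versus 66.2 in GFP-, and *Rnf123*. All 3 AMIGO genes thus had the higher value in GFP+, and *Amigo2* alone passed 4-fold. Of all symbols, 9542 had the higher value in GFP+ and 8385 in GFP-.

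*Lrrn1*, a neuronal leucine-rich repeat protein, was at 8.69 FPKM in GFP+ against 0.0450 in GFP-, a difference of 3.21. *Lrrn3*, its relative, was at 3.43 FPKM in GFP+ versus 0.0537 in GFP-. Its difference of 2.07 was the lowest of the 9 that passed. *Lrrn3* sits within the merged locus of *Immp2l*, a mitochondrial peptidase gene that went the other way, at 7.63 FPKM in GFP+ against 28.3 in GFP-. *Lrrn2* was listed at 0 in GFP+ and at 0.0204 FPKM in GFP-, and *Lrrn4* and *Lrrn4cl* stayed below 0.14 FPKM in both libraries. *Lingo1*, a co-receptor of the Nogo receptor in neurons, was at 5.93 FPKM in GFP+ versus 0.0415 in GFP-, a difference of 2.74. Its relatives *Lingo2*, *Lingo3* and *Lingo4* had 0.0620, 0.297 and 0.628 FPKM in GFP+ and 0.00477, 0.386 and 0.0940 FPKM in GFP-. In LINGO and LRRN, the genes past the rule were the only ones of their family to reach 1 FPKM.

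**Figure D2:**
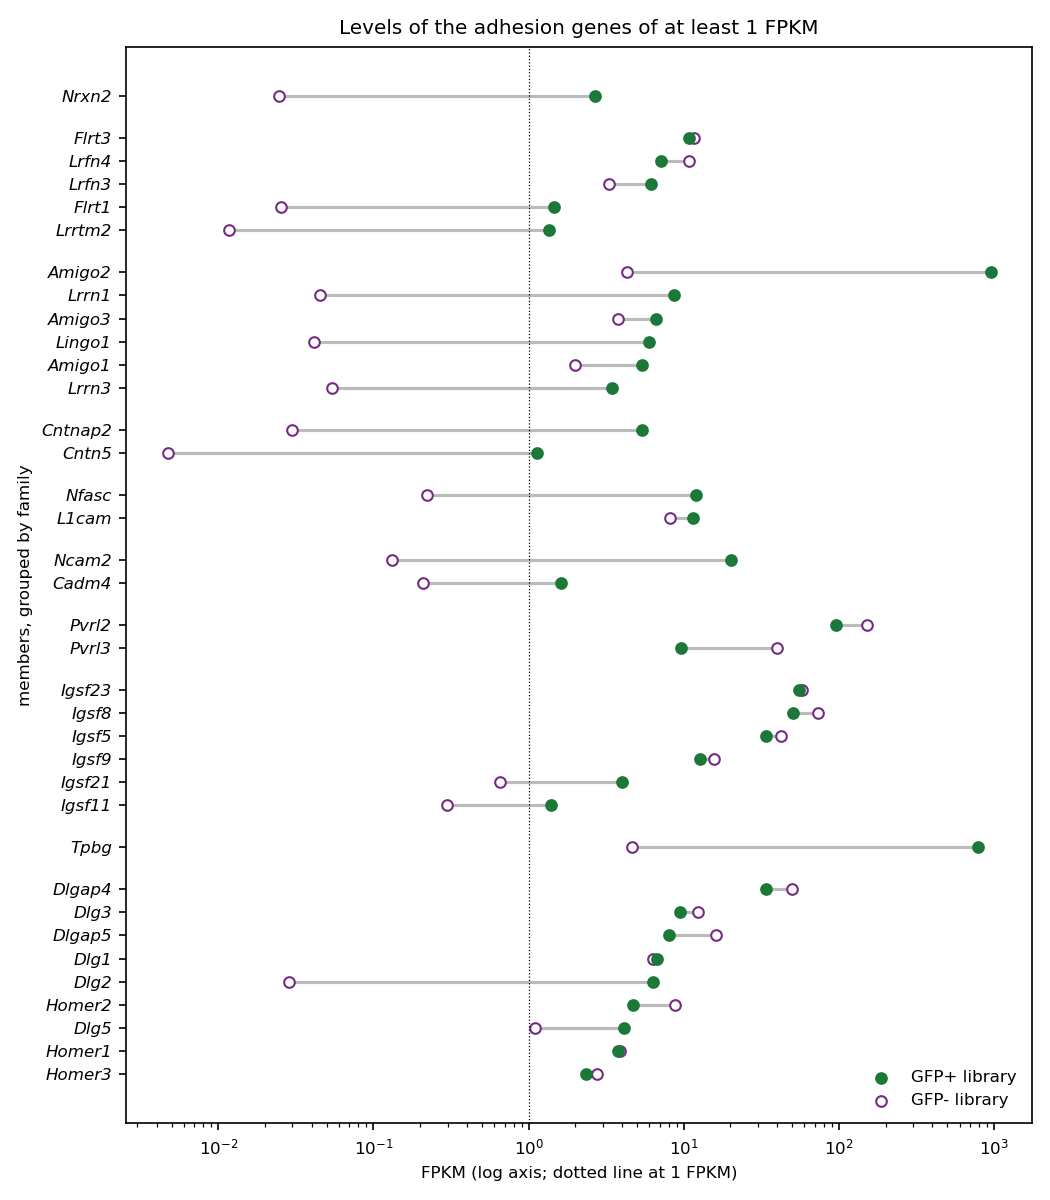
FPKM of the 36 members of at least 1 FPKM in a library, on a log axis, with the GFP+ library as filled and the GFP- library as open points, grouped by family. *Amigo2* and *Tpbg* reach 954 and 785 FPKM in GFP+, and 14 genes cross the dotted line at 1 FPKM in GFP+ alone. The nectins *Pvrl2* and *Pvrl3* have the higher point in GFP-, as do *Flrt3*, *Lrfn4* and several IGSF and scaffold genes.

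Of the immunoglobulin-like genes, *Ncam2* had the greatest difference. *Ncam2*, a homophilic adhesion molecule known from olfactory axons, was at 20.1 FPKM in GFP+ against 0.131 in GFP-, with a difference of 4.22. *Ncam1*, the classical neural cell adhesion molecule and a common neuroendocrine marker, was at 0.0186 FPKM in GFP+ versus 0.00680 in GFP-, about 7.3 and 2.6 fragments. *Ncam2* lies on chromosome 16, plus strand, 81200697 to 81626828.

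In the L1 family, *Nfasc* (neurofascin, which organises the axon initial segment and the node of Ranvier) was at 12.0 FPKM in GFP+ against 0.221 in GFP-, with a difference of 3.41. It lies on chromosome 1, minus strand, 132564690 to 132741797. *L1cam* was at 11.4 FPKM in GFP+ versus 8.20 in GFP-, a difference of 0.44. *Nrcam* was at 0.00664 FPKM in GFP+ against 0.00221 in GFP-, and *Chl1* was listed at 0 in both.

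Of the 4 CADM genes, which mediate synaptic and epithelial contacts, *Cadm4* was compared, at 1.61 FPKM in GFP+ versus 0.208 in GFP-. *Cadm1* had the higher value in GFP-, at 0.173 FPKM in GFP+ against 0.848 in GFP-. *Cadm2* and *Cadm3* were at 0.0915 and 0.00404 FPKM in GFP+ and listed at 0 in GFP-. No CADM gene passed the rule.

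Among 6 contactins and 7 CASPR proteins, which pair at axon-glia contacts, 2 were compared, both only through GFP+, and 1 passed. Of all symbols in that position 31.7% passed. *Cntnap2* (CASPR2, which clusters potassium channels beside the node of Ranvier) was at 5.38 FPKM in GFP+ versus 0.0298 in GFP-, a difference of 2.63 and about 3162 against 17.3 fragments. *Cntn5* was at 1.12 FPKM in GFP+ against 0.00471 in GFP-, where about 1.2 fragments lie behind the value. *Cntnap4* was at 0.380 FPKM in GFP+, about 111 fragments, and listed at 0 in GFP-, where 3 fragments would be 0.0105 FPKM. The other CASPR and contactin genes stayed below 0.074 FPKM in both libraries, with *Cntn3*, *Cntnap3* and *Cntnap5a* listed at 0 in both.

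The classical synaptic pairs were low. Of the neurexins, the presynaptic receptors, *Nrxn2* was compared, at 2.69 FPKM in GFP+ versus 0.0247 in GFP-. Its difference of 1.85 was the highest among members that missed the rule. *Nrxn3* was at 0.0857 FPKM in GFP+ versus 0.00966 in GFP-. All 3 neuroligins stayed below 1 FPKM: *Nlgn2*, the neuroligin of inhibitory synapses, was the highest at 0.355 FPKM in GFP+ against 0.113 in GFP-. *Lrrtm2*, a neurexin ligand, was at 1.35 FPKM in GFP+ versus 0.0116 in GFP-, in a merged locus with *Ctnna1*, at 132 FPKM in GFP+ against 128 in GFP-. The other 3 LRRTM genes were at 0.031 FPKM or below. None of the 6 SLITRK genes, which bind presynaptic receptor phosphatases, reached 1 FPKM. Of all 23532 symbols, 9542 (40.5%) had the higher value in GFP+ and 8385 in GFP-, with 5605 at 0 in both. Each of the SLITRK genes had the higher value in GFP+, but some on few fragments, such as *Slitrk2* on about 4.9 against 0.96. *Slitrk6* was the highest and nearly equal, at 0.316 FPKM in GFP+ versus 0.304 in GFP-, about 80.2 against 76.2 fragments.

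FLRT proteins bind latrophilins and UNC5 receptors. *Flrt3* was at 10.8 FPKM in GFP+ against 11.7 in GFP-, a direction that turned under both rescalings, and *Flrt1* at 1.47 FPKM in GFP+ versus 0.0253 in GFP-. *Flrt1* lies in a merged locus with *Macrod1*, at 44.8 FPKM in GFP+ against 126 in GFP-. Of the 5 LRFN (SALM) genes, some encode proteins that bind the DLG scaffold. *Lrfn3* was at 6.19 FPKM in GFP+ versus 3.31 in GFP-, and *Lrfn4* at 7.16 FPKM in GFP+ against 10.8 in GFP- (turned with one total). *Lrfn1*, read from a row joined with a microRNA, was at 0.483 FPKM in GFP+ versus 0.242 in GFP-. *Lrfn2* and *Lrfn5* were listed at 0 in both. No gene of the LRRTM, SLITRK, LRFN and FLRT families passed the rule, of 18 in the files and 5 compared. None of the 4 IgLON genes (*Lsamp*, *Negr1*, *Ntm* and *Opcml*) reached 0.1 FPKM, and all 4 were listed at 0 in GFP-.

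**Figure D3:**
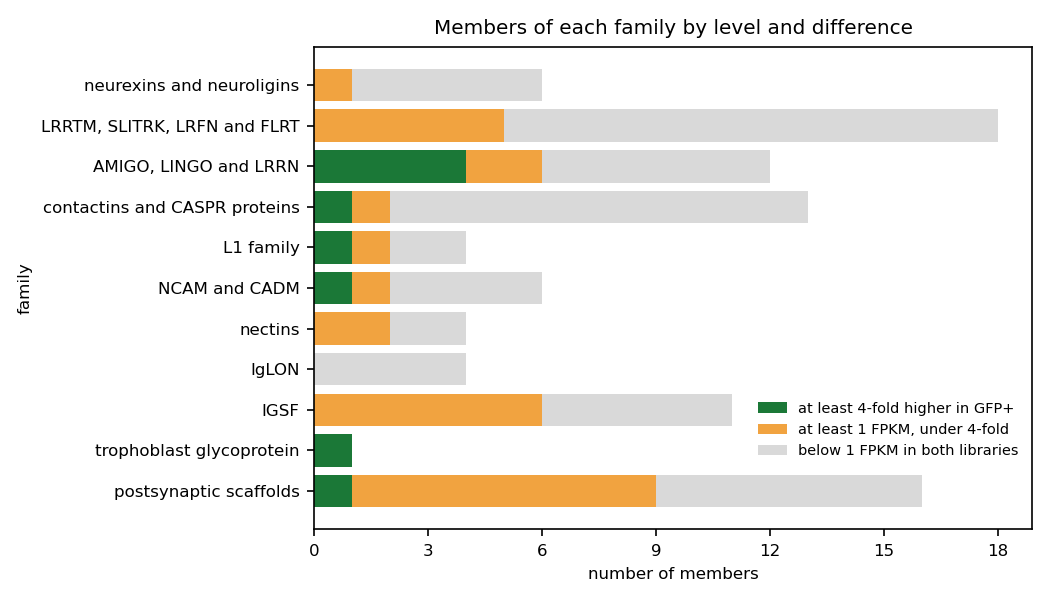
Number of members of each family (bars add up to the family's size) that were at least 4-fold higher in GFP+, compared but under 4-fold, or below 1 FPKM in both libraries. The AMIGO, LINGO and LRRN group holds 4 of the 9 genes past the rule, and 59 of the 95 members are below 1 FPKM in both.

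The 2 nectins that were compared, adhesion molecules of the adherens junction that bind afadin, both had the higher value in GFP-. *Pvrl3* (nectin-3) was at 9.57 FPKM in GFP+ against 40.0 in GFP-. Its difference of -1.96 was the lowest of all members and just missed the rule. *Pvrl2* (nectin-2) was the most abundant member of the GFP- library, at 96.2 FPKM in GFP+ versus 152 in GFP-, a difference of -0.65. *Pvrl1* was at 0.547 FPKM in GFP+ against 0.478 in GFP-, and *Pvrl4* at 0.306 FPKM in GFP+ versus 0.534 in GFP-. The median log2 ratio of the 5563 symbols with 10 FPKM or more in each library was -0.50, so the value of *Pvrl2* was near that of a typical well-expressed gene, while *Pvrl3* was below it.

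Of the IGSF genes, 6 were compared and none passed the rule. *Igsf8*, a partner of tetraspanins, was at 50.8 FPKM in GFP+ against 72.9 in GFP-. *Igsf23* was at 55.0 FPKM in GFP+ versus 57.6 in GFP-, *Igsf5* (the junctional protein JAM4) at 34.1 FPKM in GFP+ against 42.3 in GFP-, and *Igsf9* at 12.8 FPKM in GFP+ versus 15.6 in GFP-. These 4 had differences between -0.51 and -0.07, all of which turned above 0 with both libraries rescaled to one total. Below them were *Igsf21*, a synaptic protein that binds a neurexin, at 3.98 FPKM in GFP+ against 0.653 in GFP- (a difference of 1.59), and *Igsf11* at 1.40 FPKM in GFP+ versus 0.300 in GFP-. The other 5 of the 11 IGSF genes were below 1 FPKM in both.

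Of 16 scaffold genes, 9 were compared and 1 passed, against 7.09% of all symbols compared. *Dlg2* (PSD-93, a scaffold of the postsynaptic density) was at 6.31 FPKM in GFP+ against 0.0286 in GFP-, a difference of 2.83 and about 2951 against 13.2 fragments. *Dlg4* (PSD-95) had 0.986 FPKM in GFP+ versus 0.0257 in GFP-, just under the level at which genes were compared. *Dlg1* was at 6.77 FPKM in GFP+ against 6.37 in GFP-, *Dlg3* at 9.43 FPKM in GFP+ versus 12.4 in GFP-, and *Dlg5* at 4.13 FPKM in GFP+ against 1.10 in GFP-. *Dlg5* had a difference of 1.29 and did not pass.

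DLGAP proteins bind the DLG scaffold. *Dlgap4* was at 33.8 FPKM in GFP+ versus 49.7 in GFP-, a difference of -0.54, and *Dlgap5*, a spindle protein of dividing cells, at 8.01 FPKM in GFP+ against 16.1 in GFP-, a difference of -0.93. *Homer1*, *Homer2* and *Homer3*, which link glutamate receptors to calcium stores, had 3.75, 4.71 and 2.33 FPKM in GFP+ and 3.88, 8.73 and 2.74 FPKM in GFP-. *Homer3* shares a merged locus with *Ddx49*. No SHANK gene reached 1 FPKM; *Shank2* was the highest, at 0.418 FPKM in GFP+ versus 0.946 in GFP-, in a merged locus with *Cttn*, at 81.0 FPKM in GFP+ against 86.7 in GFP-. With the median ratio set to 0, *Dlg3*, *Homer1* and *Homer3* were above 0, and with one total *Dlgap4* was too.

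Short motifs were searched in the promoters of the 9 genes past the rule, of which 8 had an entry in the RefSeq table (GRCm38.p6), with 14 start sites, and *Lrrn3* was not among them. Across both strands of the 250 bases before each start, CAGATG (the E box bound by Neurod1-type factors) was found in 2 of the 14 windows, 14.3%, against 14.4% of all 32851. CAGCACC and GGACAG, parts of the site of the neuronal repressor REST, were found in 1 window each (7.14%), against 5.73% and 18.7% of all. The 3 windows below are those that hold CAGATG or CAGCACC, with the match in capitals; in *Ncam2* it is CAGCACC read on the opposite strand. Each of these windows holds 1 match, so that no matches overlap.
Lrrn1 (chr6:107529476-107529725, plus strand): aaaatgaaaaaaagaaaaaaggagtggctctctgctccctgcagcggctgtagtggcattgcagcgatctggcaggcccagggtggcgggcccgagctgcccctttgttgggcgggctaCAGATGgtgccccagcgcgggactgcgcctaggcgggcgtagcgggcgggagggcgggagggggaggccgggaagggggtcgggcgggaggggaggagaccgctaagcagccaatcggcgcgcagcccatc
Dlg2 (chr7:91090536-91090785, plus strand): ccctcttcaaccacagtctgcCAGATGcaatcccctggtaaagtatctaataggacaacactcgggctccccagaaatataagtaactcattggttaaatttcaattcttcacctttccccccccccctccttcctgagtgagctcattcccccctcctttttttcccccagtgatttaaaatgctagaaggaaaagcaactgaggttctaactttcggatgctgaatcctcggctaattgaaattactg
Ncam2 (chr16:81200447-81200696, plus strand): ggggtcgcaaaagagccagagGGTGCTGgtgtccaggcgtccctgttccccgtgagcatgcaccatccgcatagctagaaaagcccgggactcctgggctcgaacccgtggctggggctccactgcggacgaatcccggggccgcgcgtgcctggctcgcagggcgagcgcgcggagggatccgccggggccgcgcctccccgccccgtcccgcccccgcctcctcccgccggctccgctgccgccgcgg
The match begins at base 120 of the *Lrrn1* window and at base 22 of the *Dlg2* and *Ncam2* windows. These are matches of letters and do not show binding.

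Among the 59 members below 1 FPKM in both libraries, 7 were listed at 0 in both, 16 at 0 in GFP- alone and 4 at 0 in GFP+ alone. These are also the counts over all 95 members. Of all 23532 symbols, 5605 were at 0 in both, 1899 in GFP- alone and 746 in GFP+ alone, so zeros in GFP- alone were the more frequent there too. Over all 95 members 61 had the higher value in GFP+ and 27 in GFP-, with 7 at 0 in both. Of all symbols, 9542 (40.5%) had the higher value in GFP+ and 8385 in GFP-, with 5605 at 0 in both. Of the 95, 36 reached 1 FPKM in GFP+ and 22 in GFP-, against 48.8% and 45.0% of all symbols. Of the 73 members below 1 FPKM in GFP-, 14 reached it in GFP+, against 9.87% of all such symbols. None of the 22 members of at least 1 FPKM in GFP- was below it in GFP+, against 3.7% of all such symbols.

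Partners that the name rule leaves out were examined as a list of 72 ligands, receptors and adaptors. Of these, 23 were compared, 3 passed the rule as higher and none as lower, with a median difference of 0.76. Over all symbols compared, 7.09% passed as higher and 4.59% as lower, and the median was -0.12. Of the 3 partners, 2 were below 1 FPKM in GFP-, out of 6 partners compared only through GFP+, where 31.7% of all symbols passed. The filter fixed the sign of these 6 of 23, against 1277 of the 11868 symbols, so the medians are taken over unlike mixes. *Unc5a*, a receptor of netrins and FLRT proteins, was at 36.2 FPKM in GFP+ versus 1.35 in GFP-, a difference of 3.99. *Cbln3*, a member of the cerebellin family of secreted synaptic proteins, was at 4.84 FPKM in GFP+ against 0.236 in GFP-. *Tenm4*, a teneurin of the family that binds latrophilins, was at 3.34 FPKM in GFP+ versus 0.0682 in GFP-, a difference of 2.02. *Apba1*, the Mint adaptor of the neurexin complex, was at 1.70 FPKM in GFP+ against 0.0420 in GFP- and did not pass the rule.

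The epithelial junction and polarity partners of nectins and DLG proteins were all compared, 20 of 20, and 1 passed as higher, against 7.09% of all symbols compared. It was the 1 gene of the list below 1 FPKM in GFP-. *Mpp2*, a membrane-associated scaffold related to the DLG proteins, was at 8.06 FPKM in GFP+ versus 0.498 in GFP-. *Apc*, which DLG proteins bind, was at 8.24 FPKM in GFP+ against 1.59 in GFP- and did not pass the rule. *Pard3* was at 38.2 FPKM in GFP+ versus 12.7 in GFP-, and *Kif13b*, a motor that carries DLG1, at 7.30 FPKM in GFP+ against 2.23 in GFP-. *Cdh1* (E-cadherin) was at 353 FPKM in GFP+ versus 251 in GFP-, and *Mllt4* (afadin), the nectin partner, at 12.5 FPKM in GFP+ against 5.32 in GFP-. Afadin thus had the higher value in GFP+, and nectin-3 the higher value in GFP-, but *Cdh1* and *Mllt4* were picked after their values were seen. Of the 20 genes, 14 had the higher value in GFP+ and 6 in GFP-, among them *Mpp3* at 3.40 FPKM in GFP+ versus 9.66 in GFP-. The median difference of the list was 0.40, against -0.12 over all symbols compared.

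The labelled cell type was checked by markers. The 6 enterochromaffin markers that had an estimate all passed 4-fold as higher in GFP+, while *Chga* and *Chgb* had none. Over all symbols compared, 7.09% passed as higher and 4.59% passed as lower. Of the other epithelial lists, 4 of 4 Paneth cell markers, 2 of 3 goblet, 1 of 4 tuft, 2 of 4 enterocyte and 2 of 3 stem cell markers were at least 4-fold lower. Markers with the higher value in GFP+ were *Sis* of enterocytes at 183 FPKM in GFP+ against 85.5 in GFP-, *Muc2* of goblet cells at 3.98 FPKM in GFP+ versus 2.91 in GFP-, and *Dclk1* of tuft cells at 2.58 FPKM in GFP+ against 1.31 in GFP-. Of the 12 enteric neuron genes 4 were compared, 3 of them only through GFP+, and 2 passed the rule, *Nefm* and *Ret*. Both were among those 3, a position in which 31.7% of all symbols passed. The list summed to 29.6 FPKM in GFP+ versus 3.05 in GFP-, of which *Nefm* gave 16.1 FPKM in GFP+. In this list 8 genes had the higher value in GFP+ and 1 in GFP-. The other 3, *Phox2a* and *Vip* among them, were listed at 0 in both. *Tubb3*, which did not pass, was at 4.58 FPKM in GFP+ against 1.51 in GFP-. Of the 7 enteric glia genes 2 were compared, *Erbb3* and *Gfap*, and none passed. The list summed to 112 FPKM in GFP+ against 44.8 in GFP-, of which *Erbb3*, also an epithelial gene, gave 110 and 44.5 FPKM. *Gfap* was at 1.01 FPKM in GFP+ versus 0.00642 in GFP-, and *Sox10* at 0.0321 FPKM in GFP+ and 0 in GFP-. All 7 fibroblast and muscle genes had the higher value in GFP+, but only 2 were compared, and none passed. The list summed to 4.84 FPKM in GFP+ versus 0.0496 in GFP-. It was led by *Col3a1* at 1.61 FPKM in GFP+ against 0.00593 in GFP-, and *Col1a1* at 1.56 FPKM in GFP+ against 0.0106 in GFP-. Of 4 endothelial genes *Pecam1* was at 10.4 FPKM in GFP+ versus 0.187 in GFP-, past the rule, and *Cdh5* at 0.00845 FPKM in GFP+ and 0 in GFP-. The 5 immune genes summed to 3.01 FPKM in GFP+ against 1.68 in GFP-, of which *Cd68* gave 2.71 and 0.595 FPKM. Only 1 of the 5 had the higher value in GFP+ and 3 had it in GFP-, *Itgam* among them at 0.270 FPKM in GFP+ versus 1.03 in GFP-. The part of such cells in the values of the members was not tested.

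The low values show the depth behind these levels. Among long genes with 1 transcript, the commonest lowest step put 1 FPKM over a kilobase at 59.9 fragments in GFP+ (17 genes) and at 59.0 in GFP- (37 genes). With that step, 59.5% of 74 low genes in GFP+ and 73.9% of 92 in GFP- came within 0.1 of a whole number of fragments, so many values do not follow it. The genes that set the step are among those scored, so part of each share was fixed in advance. The fragment numbers given here were computed from the step with the longest GENCODE transcript. They are approximate and cover counting error only. On this scale *Amigo2* had about 758 fragments and *Tpbg* about 980 in GFP-. The GFP- values of *Lrrn1*, *Lingo1*, *Dlg2*, *Cntnap2* and *Lrrn3* rest on about 9.8, 8.9, 13.2, 17.3 and 12.2 fragments, those of *Nrxn2*, *Flrt1* and *Lrrtm2* on about 9.7, 8.8 and 3.9. At such counts the size of a ratio is imprecise.

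**Figure D4:**
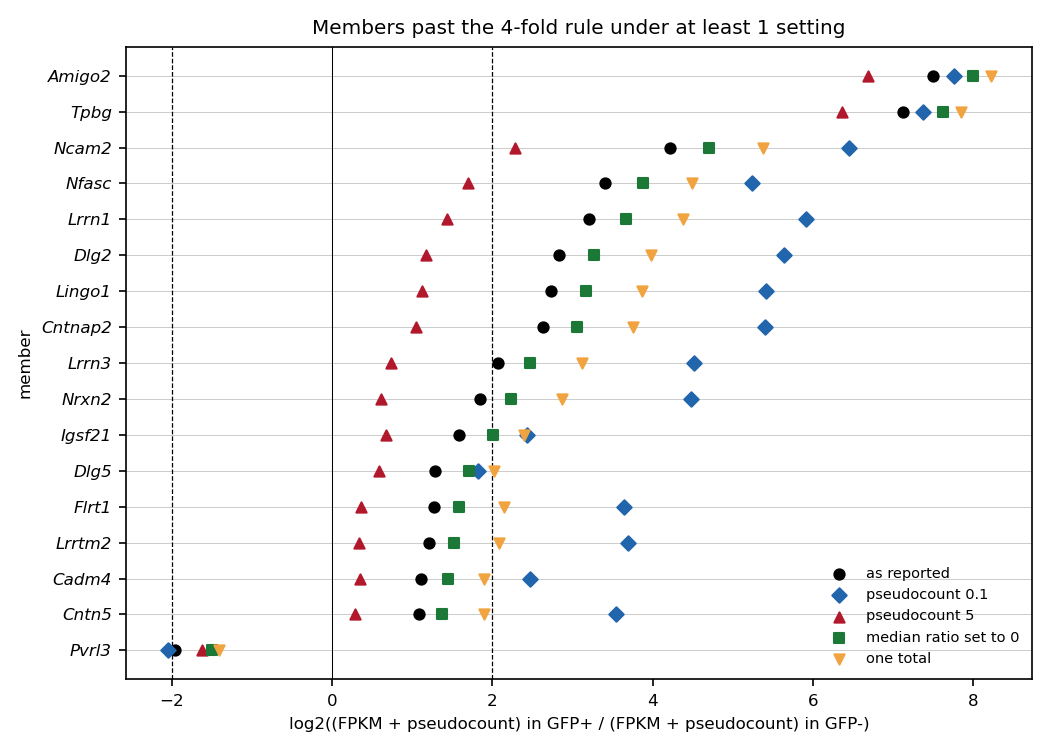
Log2 difference, GFP+ over GFP-, of the members past 4-fold (dashed lines) under at least 1 of 5 settings of pseudocount and library scaling. *Amigo2*, *Tpbg* and *Ncam2* lie above 2 under every setting drawn, while *Nfasc*, *Lrrn1*, *Dlg2*, *Lingo1*, *Cntnap2* and *Lrrn3* fall below it with a pseudocount of 5.

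The count of 9 depended on the pseudocount and the scaling. With a pseudocount of 5 there were 3 of 36 members compared, against 2.97% of all symbols. With a pseudocount of 0.1 there were 15 of 36, against 12.8%. Rescaling also changed how many members were compared. With the median ratio set to 0 there were 11 of 38, against 10.8%. With both libraries rescaled to one total there were 14 of 44, against 13.4%. All 9 were among the genes called under each setting other than the pseudocount of 5 and a filter of 5 FPKM, which leaves *Lrrn3* out. Leaving out the 22 members on merged loci, an alternative chosen after seeing the data, left 6, without *Amigo2*, *Nfasc* and *Lrrn3*.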

How the data were processed

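RNA with poly(A) tails from 1 GFP+ and 1 GFP- sort was made into cDNA by a SMARTer ultra-low-input method, per the labels' protocols. The deposited values are FPKM with confidence bounds and a status, per the file headers. The submitters' processing notes name mm10 and the tools Cuffdiff, Cufflinks, TopHat2 0.7 and FastQC; for annotation, strand and reads with several matches the answer is not given in the sources used here. The 5 rows marked HIDATA in GFP+ (listed at 0) were treated as not estimated, and FPKM was summed per symbol with Python 3.11.15 and pandas 2.3.3. Merged loci join neighbouring genes, so that reads could be split between them. Of the 95 members, 94 matched a GENCODE M21 gene and 22 lie on a locus shared with another row. With 1 library per fraction, genes were set apart by size, not by a test, and the code was tested on simulated data without noise, which checks the arithmetic and not the error of the rule. Pseudocounts of 0.1 and 5, 2 scalings, the filter, joined rows and row status were varied. Every member of at least 1 FPKM is named with its values, the rest by family, and of the partner and polarity lists the 4 largest differences. *Cdh1* and *Mllt4* were added after their values were seen. Members and lists were chosen with earlier results of these data known. Values of some genes of these lists are not reported here.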

Additional observations from a re-analysis of the deposited data

How the results depend on the processing

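As reported, 9 members passed 4-fold as higher in GFP+ and 0 as lower, 3 partner genes higher and 0 lower, and the median difference of the members compared was 0.81, against -0.12 over all symbols compared. The filter fixed the sign of 14 of these 36 members, against 1277 of the 11868 symbols. Medians with a filter are thus taken over unlike mixes. With a pseudocount of 0.1 the counts were 15 members higher and 1 lower (*Pvrl3*) and 5 partner genes higher, where 12.8% of all symbols were higher and 6.82% lower, with a median of 1.14 against -0.14 over all symbols. With a pseudocount of 5 they were 3 and 1 higher, against 2.97% of all symbols, with a median of 0.33 against -0.08. With one total 14 of 44 members compared were higher, against 13.4% of all symbols, and the median was 1.10 against 0.50 over all symbols. With the median ratio set to 0 the median was 1.19 against 0.35, so both rescalings moved all genes upwards. With no filter the median was 0.036 against 0, and over members of at least 5 FPKM it was 0.077 against -0.27, with 1 partner gene higher against 8.16% of all symbols. The number of members compared, pseudocount and scaling differ between these settings by construction. Of the 36 members compared, 14 were called under some settings and not others, and no called member changed sign. No paired analysis was possible because each fraction has 1 library. Without replicates the differences between fractions and between libraries cannot be told apart, and low GFP- values rest on few fragments.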
